A study of Rattus norvegicus with 32 samples.

Results

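Of 23822 genes measured in the rat hippocampus, 44 code for receptors of cytokines and chemokines, for receptors and ligands of the tumor necrosis factor (TNF) superfamily, for receptors of transforming growth factor beta (TGF-beta) and bone morphogenetic protein (BMP), or for adaptors and feedback inhibitors of these receptors. They were chosen by gene symbol, with the symbol patterns of these families, among the 3289 genes whose symbol could be read, and the TNF receptor genes Tnfrsf1a and Tnfrsf1b were left out. The RNA came from hippocampi of 32 rats on a Crl:CD(SD) (Sprague Dawley) background, either heterozygous for the R237H missense mutation in Gfap (Gfap+/R237H, R237H below) or wild-type (WT) littermates. Gfap codes for the glial fibrillary acidic protein of astrocytes, and the R237H rat is a model of Alexander disease in which every cell carries the mutant allele. At postnatal day 56 (P56) each genotype was represented by 4 males and 4 females, and at P21 by 4 males each, 5 R237H females and 3 WT females. The ages were collected separately, so that an effect of age and one of collection cannot be told apart. Genotypes were compared within a sex and age. Each library is 1 rat and held 21580397 to 55544871 counted reads, and p-values measure the spread between rats. Whole hippocampi were sequenced, so more cells of a type and more RNA per cell cannot be told apart.

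Cytokine receptors are chains that sit in the membrane and pass the binding of a secreted ligand to kinases and transcription factors inside the cell. Type I and type II cytokine receptors signal through JAK kinases and STAT factors. Receptors of the interleukin 1 (IL-1) and IL-17 families and most TNF receptors signal through adaptor proteins to NF-kappaB, whereas TGF-beta and BMP receptors phosphorylate SMAD proteins and chemokine receptors couple to G proteins that direct cell movement. In brain, microglia carry many of these receptors, and astrocytes, endothelial cells and neurons carry others.

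The symbols were available only for the genes with the smallest false discovery rates (FDR) of the 4 comparisons of R237H with WT, in 4 tables of 1999, 1855, 1999 and 1999 rows for P56 males, P56 females, P21 males and P21 females. A member was therefore among the genes with the smallest FDR of at least 1 comparison, and family members outside the tables were not counted. In these tables stood 34, 30, 30 and 33 of the 44 members, 21 in all 4 and 9 in 1. Since the comparisons used different rats, an FDR is given below as a test only where the symbol of the gene also stood in the table of another comparison, and a member taken from the table of that comparison alone is described without a test. At the edge of the tables, the last member inside was Il1r1 in P56 males (row 1963, log2 fold change 1.64), Il17re in P56 females (row 1806, 1.77), Tnfsf12 in P21 males (row 1988, 0.57) and Cxcr4 in P21 females (row 1838, 0.55). The nearest members outside were Traf2 at P56 (0.82 in males and 0.80 in females), Ccr3 in P21 males (0.91) and Tgfbr2 in P21 females (0.37).

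Within each of the 4 comparisons most members were increased in R237H rats. With an FDR under 0.01 by the quasi-likelihood test of edgeR, 35 of the 41 members that could be tested from other rats were increased and 1 decreased in P56 males, beside 16.8% and 11.1% of all genes. In P56 females 35 of 43 were increased and 1 decreased (17.0% and 11.1% of all genes). In P21 males 30 of 40 were increased and 0 decreased (12.4% and 4.82% of all genes), and in P21 females 23 of 39 and 0 (7.06% and 0.753%). The count in P21 females was lower with the number in the rats' labels as a replicate block, as given below. The median log2 fold change of the members was 1.82 and 1.70 in P56 males and P56 females and 0.97 and 1.19 at P21, where that of all genes lay between -0.03 and -0.01. The genotypes did not overlap in normalized counts for 41 of 44, 39 of 44, 35 of 41 and 32 of 43 members tested in the same order, beside 42.0%, 40.9%, 30.0% and 21.5% of all genes. Because the members entered through these same tables, the shares describe them and do not show that the families as a whole moved. Some members, such as Cxcr3, Il23r, Tnfsf18 and Tnfsf8, had so few WT counts that they passed the filter on low counts through their R237H rats. Their FDR and their part in these counts are descriptions. Counts under a stricter filter are given below. In the plot by class the log2 fold changes at P56 run from -1.64 to 5.30 in males and from -1.53 to 4.86 in females, and 42 of 44 are above 0 in each sex. Gfap itself, counted over both alleles, had in the same order of comparisons log2 fold changes of 2.85, 2.89, 2.53 and 2.89.

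**Figure D1:**
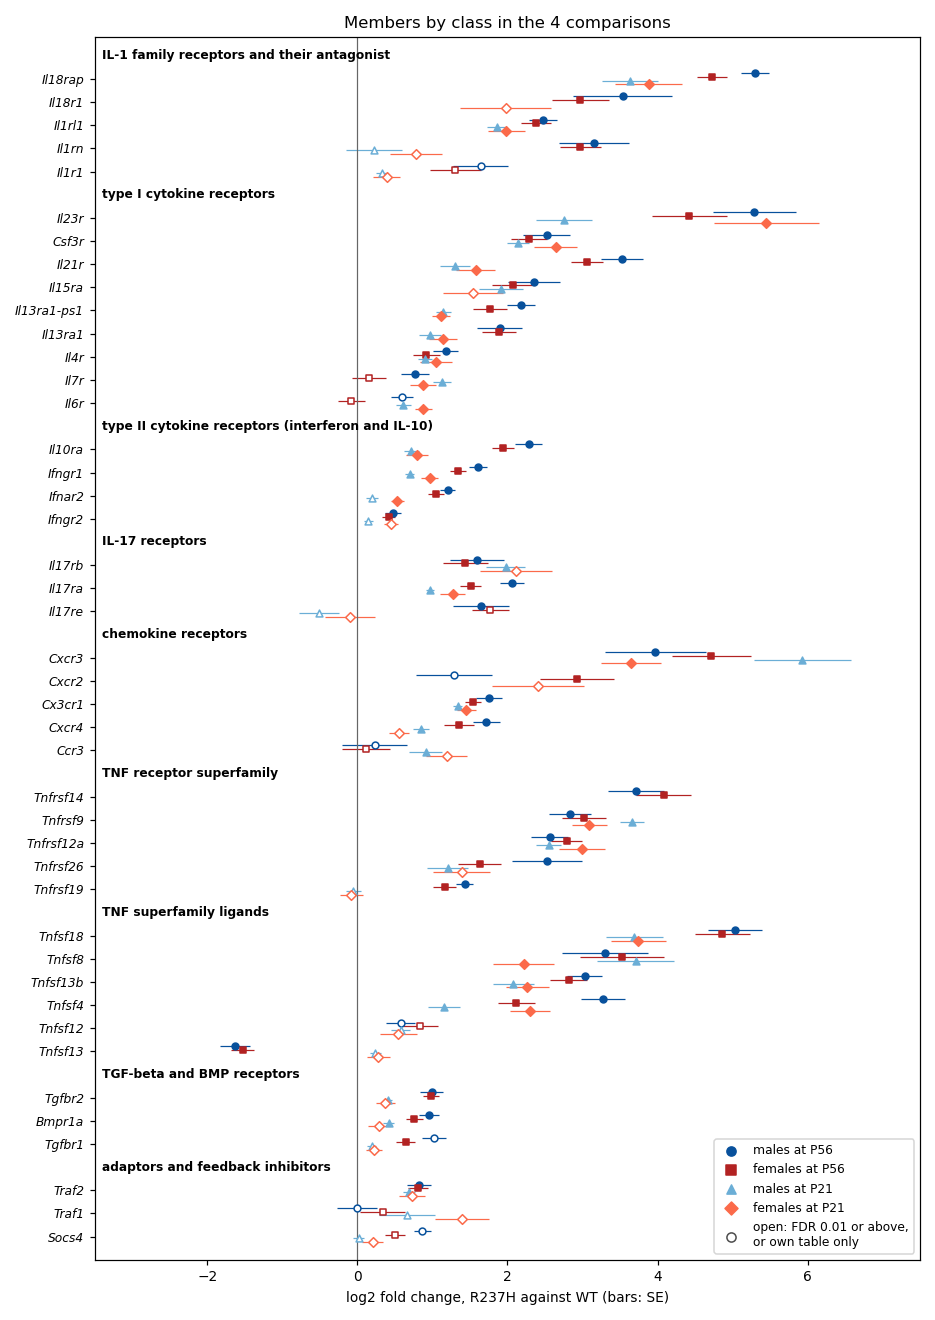
Log2 fold change of R237H against WT (x axis, bars are SE) of 43 members (rows, grouped by class) in both sexes at P56 and P21, with filled symbols for members tested from other rats at an FDR under 0.01. Il18rap, Il23r and Tnfsf18 lie farthest to the right in P56 males, Cxcr3 in P21 males, and Tnfsf13 is the one gene far to the left.

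Microglial markers moved with the members. The 12 markers of microglia and macrophages summed to 210.6 to 393.5 TPM (transcript counts set against gene length and library total) in P56 WT males and 2123 to 3380 in R237H males, and to 312.5 to 400.4 and 2017 to 3155 in females. Over all genes the median log2(TPM + 0.1) was itself higher in R237H rats at P56, by 0.40 in males and 0.26 in females, so that these sums overstate the gap. At P21 the sums were 327.1 to 346.2 and 904 to 1098 in males and 276.4 to 334.8 and 756.5 to 1389 in females. Of the 12 markers 10 were increased in P56 males and 10 in P56 females, 11 of 11 tested from other rats in P21 males and 10 in P21 females. Of all genes 16.8%, 17.0%, 12.4% and 7.06% were increased in the same order, but the marker symbols came from the tables of changed genes. Tmem119, a marker of resident microglia, had log2 fold changes of 0.50 and 0.19 at P56 that did not pass the test (FDR = 0.157 and 0.464). Trem2, a microglial lipid receptor, did not pass at P56 either, with 0.69 and 0.65 (FDR = 0.306 and 0.154). The T and NK cell list had 1 of 11 markers with a symbol (Cd6, 2.36 and 2.31 at P56), the B cell list 1 of 5 (Cd22, 3.99 and 3.46) and the neutrophil list 0 of 7, so blood cells could not be judged by their defining markers. The part of cell number in the results was not tested. Choroid plexus markers summed to 126.1 to 6102 TPM in 6 rats of both genotypes and to at most 38.7 TPM in the other 26.

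Levels of single genes are given for each rat as CPM, counts set against the total of the library, on library sizes scaled by the trimmed mean of M values (TMM) over all 32 rats, and TPM is used to compare genes. By mean TPM over the 32 rats the most abundant members were Ifngr1 (70.1), Cx3cr1 (42.4), Ifngr2 (34.7) and Bmpr1a (30.6), and the least abundant were Cxcr2 (0.0763), Il18r1 (0.179) and Tnfsf8 (0.207). Several of the members with the largest log2 fold changes stood near the low end of this range, such as Il18rap (mean TPM 1.36), Il23r (0.659), Tnfsf18 (1.09) and Cxcr3 (0.515).

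In the IL-1 family, the accessory chain of the IL-18 receptor, Il18rap, was low in WT rats and higher in all R237H rats. In P56 males, the WT rats had 0.356, 0.294, 0.276 and 0.264 CPM and the R237H rats 10, 13.1, 12.2 and 11.4. In P56 females the values were 0.323, 0.415, 0.314 and 0.532 in WT and 10.9, 9.72, 11.9 and 9.97 in R237H rats. The genotypes were far apart in both sexes. At P21 the WT males had 0.0648, 0.139, 0.233 and 0.232 CPM and the R237H males 2.33, 3.03, 1.21 and 1.76, and the females 0.133, 0.39 and 0.315 in WT and 2.15, 4.85, 5.78, 4.64 and 3.08 in R237H rats. The lowest R237H rat of all had 1.21 CPM and the highest WT rat 0.532. The log2 fold changes were 5.30 ± 0.19 (SE) in P56 males (FDR = 2.84e-07), 4.73 ± 0.20 in P56 females (FDR = 2.00e-07), 3.63 ± 0.37 in P21 males (FDR = 1.47e-05) and 3.88 ± 0.45 in P21 females (FDR = 0.000211), where the value after ± is the SE, as in the log2 fold changes below. The ligand-binding chain Il18r1 stood at a lower level, with log2 fold changes of 3.54 and 2.97 at P56 (FDR = 0.00188 and 0.00014), but rested on 10 and 11 counts in all WT males and WT females together, and at P21 it had 1.98 in females (FDR = 0.0574) and was too low to be tested in males.

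Il1rl1, the receptor of IL-33, was increased in all 4 comparisons, with log2 fold changes of 2.47 and 2.38 at P56 and 1.86 and 1.99 at P21. Il1rn, the secreted antagonist of the IL-1 receptor, was increased in both sexes at P56, and more so than at P21 by the test of the age difference given below. The P56 WT males had 0.503, 0.0783, 0.326 and 0.144 CPM and the R237H males 2.01, 3.08, 2.08 and 2.05, while at P21 the WT males had 0.302, 0.231, 0.191 and 0.368 and the R237H males 0.157, 0.505, 0.278 and 0.32, which overlapped. Its log2 fold changes were 3.15 ± 0.47 in P56 males (FDR = 0.000521), 2.97 ± 0.27 in P56 females (FDR = 1.42e-05), 0.22 ± 0.38 in P21 males (FDR = 0.707) and 0.78 ± 0.34 in P21 females (FDR = 0.185).

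Il1r1, the signaling receptor of IL-1, was the most abundant of the class (mean TPM 6.53). At P56 WT males had 6.25, 13.5, 8.3 and 3.75 CPM and R237H males 19.2, 28, 17.2 and 33.9, a log2 fold change of 1.64 that is not tested because the symbol came from this comparison alone. In P56 females the values of WT rats were 10.3, 5.96, 6.26 and 17.1 and those of R237H rats 30.8, 22, 16.1 and 30.1, which overlapped, and the log2 fold change of 1.30 did not pass the threshold (FDR = 0.0106). It passed when R237H replicate s69-C or WT replicate s71-D was left out (FDR = 0.00724 and 0.00121). At P21 the log2 fold changes were 0.33 and 0.39 (FDR = 0.0118 and 0.197). Without WT replicate R1781G the change in P21 males passed (FDR = 0.00775).

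Among the 9 type I cytokine receptor genes, 8 were increased in P56 males, 7 in P56 females, 9 in P21 males and 8 in P21 females, all tested from other rats. The largest change was that of Il23r, which codes for the specific chain of the IL-23 receptor. P56 WT males had 0.0419, 0.0587, 0.0752 and 0 CPM and R237H males 1.86, 1.76, 1.01 and 2.67, and WT females 0.0922, 0.0977, 0.0448 and 0.0694 and R237H females 1.24, 2.04, 0.764 and 2.73. At P21 the males had 0.0864, 0.0231, 0.106 and 0.058 in WT and 0.492, 0.505, 0.557 and 0.389 in R237H rats, and the females had 0.0442, 0 and 0 in WT and 0.422, 0.819, 0.709, 0.856 and 1.13 in R237H rats. No R237H rat fell to the level of any WT rat of its sex and age. Between R237H and WT rats the log2 fold changes were 5.29 ± 0.55 in P56 males (FDR = 5.33e-05), 4.42 ± 0.50 in P56 females (FDR = 6.24e-05), 2.75 ± 0.37 in P21 males (FDR = 0.000158) and 5.45 ± 0.70 in P21 females (FDR = 0.000429). The value in P21 females stands against 2 counts in all 3 WT rats together, and the ratio of pooled counts was 50.0 (exact 95% interval 13.6 to 416, counting error only).

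Most of the other type I receptor genes rose at both ages. Csf3r, the receptor of granulocyte colony-stimulating factor, had log2 fold changes of 2.52, 2.28, 2.14 and 2.64 in P56 males, P56 females, P21 males and P21 females. In the same order Il21r, the IL-21 receptor, had 3.53, 3.06, 1.30 and 1.57. Il15ra, which presents IL-15, had 2.35, 2.08, 1.91 and 1.54, the last not past the threshold (FDR = 0.0278). Il4r, shared by IL-4 and IL-13, had 1.18, 0.92, 0.90 and 1.04. Il13ra1 and its annotated pseudogene Il13ra1-ps1 share reads, since none of the 32 expected counts of either gene was whole, so they are best read together. For their summed counts the log2 fold changes were 2.11, 1.79, 1.11 and 1.12 (FDR = 1.79e-05, 0.000108, 3.94e-06 and 0.000152).

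Il6r and Il7r were increased in both sexes at P21 but not past the threshold in P56 females. Il6r binds IL-6 and signals with the shared chain Il6st. At P21 the WT males had 17.3, 21.7, 23.4 and 21.6 CPM and the R237H males 29.6, 36.2, 31.8 and 30.3, and the females 21.6, 19 and 20.2 in WT and 33.6, 38, 42.5, 36.5 and 34.3 in R237H rats. At P56 the males had 31.9, 31.2, 19.3 and 28.9 in WT and 40.7, 44.9, 41.4 and 37.9 in R237H rats, and the females had 51.5, 31.6, 28.3 and 42.8 in WT and 32.3, 35.8, 42.6 and 36.2 in R237H rats. The genotypes were apart in both sexes at P21 and in P56 males and overlapped in P56 females. This gave log2 fold changes of 0.59 ± 0.15 in P56 males (FDR = 0.0107), -0.08 ± 0.18 in P56 females (FDR = 0.747), 0.61 ± 0.10 in P21 males (FDR = 0.000563) and 0.88 ± 0.11 in P21 females (FDR = 0.000342). Without WT replicate s69-A, the change in P56 males was 0.45 with an FDR of 0.00337. For Il7r the log2 fold changes were 0.77 and 0.15 at P56 (FDR = 0.0077 and 0.617) and 1.12 and 0.87 at P21 (FDR = 2.24e-05 and 0.00552).

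All 4 type II receptor genes were increased in both sexes at P56. Ifngr1, the ligand-binding chain of the interferon gamma receptor, was the most abundant member of all. At P56 WT males had 41.3, 43.5, 33.3 and 48.4 CPM and R237H males 115, 130, 135 and 119, and WT females 49.9, 37.3, 43.4 and 40.2 and R237H females 103, 104, 121 and 110. The P21 males had 47.1, 50.6, 47.3 and 52.1 in WT and 74, 86.8, 79 and 78.6 in R237H rats, and the females had 49.9, 46 and 53.1 in WT and 84.1, 101, 108, 101 and 85.4 in R237H rats. The R237H rats of both ages lay above all WT rats, and the log2 fold changes were 1.61 ± 0.12 in P56 males (FDR = 6.58e-06), 1.34 ± 0.11 in P56 females (FDR = 6.53e-06), 0.70 ± 0.06 in P21 males (FDR = 5.55e-06) and 0.96 ± 0.11 in P21 females (FDR = 0.000222).

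The partner chain Ifngr2 had smaller log2 fold changes than Ifngr1, with 0.48 and 0.41 at P56 (FDR = 0.00503 and 0.00285), of 0.14 in P21 males (FDR = 0.101) and of 0.44 in P21 females, the last not tested. Ifnar2, a chain of the type I interferon receptor, had 1.20 and 1.05 at P56, 0.19 in P21 males (FDR = 0.0943) and 0.53 in P21 females (FDR = 0.00244). Reads of Ifnar2 were divided with other genes in some rats, with 56.2% of its expected counts not whole.

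Il10ra, the binding chain of the anti-inflammatory IL-10, had the largest mean absolute log2 fold change of the class over the 4 comparisons. At P56 the WT males had 4.74, 3.88, 3.31 and 5.19 CPM and the R237H males 17.6, 25, 21.6 and 17.7, and the females 6.09, 4.01, 4.35 and 5.5 in WT and 19.9, 18.5, 19.2 and 20 in R237H rats. For P21 males the values were 5.59, 5.06, 6.38 and 5.96 in WT and 10.6, 9.55, 8.91 and 8.6 in R237H rats, and the females had 5, 4.76 and 5.23 in WT and 7.62, 8.72, 10.5, 8.25 and 7.8 in R237H rats. The genotypes did not overlap in any comparison, and the R237H rats at P21 lay between the WT rats and the R237H rats at P56. On the log2 scale the differences were 2.29 ± 0.18 in P56 males (FDR = 8.92e-06), 1.94 ± 0.15 in P56 females (FDR = 4.02e-06), 0.72 ± 0.10 in P21 males (FDR = 0.000219) and 0.79 ± 0.15 in P21 females (FDR = 0.00414). In P21 females the FDR rose above the threshold (0.0118 to 0.0293) without WT replicate R1790A, R1796A or R1797C or R237H replicate R1790C.

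The 3 IL-17 receptor genes were increased in P56 males. Il17ra, the chain shared by most IL-17 cytokines, was increased in all 4 comparisons. P56 WT males had 15.7, 14, 11.6 and 19.3 CPM and R237H males 52.7, 71.8, 61.1 and 63.1, and the females had 22.4, 15.4, 18.7 and 21.3 in WT and 50.5, 53.5, 52.1 and 67.2 in R237H rats. At P21 the males had 19.3, 19.1, 19.6 and 20.6 in WT and 39.1, 39.6, 36.6 and 38 in R237H rats, and the females had 14.2, 16.8 and 14.8 in WT and 34.3, 41.1, 42, 38.9 and 25.4 in R237H rats. The genotypes did not overlap, and the log2 fold changes were 2.06 ± 0.16 in P56 males (FDR = 7.76e-06), 1.51 ± 0.14 in P56 females (FDR = 1.75e-05), 0.97 ± 0.06 in P21 males (FDR = 1.77e-07) and 1.27 ± 0.17 in P21 females (FDR = 0.000588).

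Il17rb, the chain for IL-25 and IL-17B, stood at a lower level, at 0.333 to 0.902 CPM (WT) and 1.05 to 1.9 (R237H) in P56 males, 0.336 to 0.832 (WT) and 1.13 to 1.86 (R237H) in P56 females, 0.439 to 0.848 (WT) and 1.51 to 2.88 (R237H) in P21 males, and 0.433 to 0.973 (WT) and 1.37 to 5.61 (R237H) in P21 females. Its log2 fold changes were 1.60 ± 0.36 in P56 males (FDR = 0.00513), 1.44 ± 0.30 in P56 females (FDR = 0.0034), 1.97 ± 0.26 in P21 males (FDR = 0.000119) and 2.11 ± 0.48 in P21 females (FDR = 0.0147). At P56 the call was lost without any 1 of 6 males (WT s65-B, s66-B and s70-A, R237H s66-A, s69-B and s70-B, FDR up to 0.0194) or 4 females (WT s64-B and s66-D, R237H s65-C and s70-C, FDR up to 0.0127), and in P21 females it was gained without R237H replicate R1789A (FDR = 0.00793). Il17re, the chain for IL-17C, had log2 fold changes of 1.65 in P56 males (FDR = 0.00516) and 1.77 in P56 females, the latter not tested, and of -0.51 and -0.10 at P21 (FDR = 0.186 and 0.905).

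Among the chemokine receptors, Cx3cr1 and Cxcr3 were increased in each of the 4 comparisons. Cx3cr1, the fractalkine receptor by which microglia are commonly identified, was the most abundant. At P56 the WT males had 52.9, 43, 47.4 and 65 CPM and the R237H males 155, 186, 215 and 132, and the females 61.8, 45.4, 57.7 and 55.1 in WT and 162, 151, 171 and 160 in R237H rats. The P21 males had 48.7, 56.1, 49.2 and 51.3 in WT and 132, 138, 123 and 124 in R237H rats, and the females had 47.3, 49.6 and 49.7 in WT and 107, 156, 138, 138 and 124 in R237H rats. The highest WT rat had 65 CPM and the lowest R237H rat 107. The log2 fold changes were 1.75 ± 0.17 in P56 males (FDR = 3.42e-05), 1.53 ± 0.11 in P56 females (FDR = 2.31e-06), 1.34 ± 0.06 in P21 males (FDR = 2.89e-08) and 1.45 ± 0.12 in P21 females (FDR = 3.88e-05).

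Cxcr3, the receptor of the interferon-induced chemokines CXCL9 to CXCL11, was barely detected in WT rats and passed the filter on low counts through its R237H rats. At P56 WT males had 0.0839, 0.157, 0 and 0 CPM and R237H males 1, 1.01, 0.82 and 1.35, WT females 0.0692, 0, 0.0224 and 0.0462 and R237H females 0.622, 0.922, 1.05 and 1.36. For P21 males the values were 0, 0, 0.0212 and 0 in WT and 0.559, 0.658, 0.278 and 0.412 in R237H rats, and the females had 0.0663, 0.0433 and 0.0526 in WT and 0.543, 0.924, 0.796, 0.676 and 0.564 in R237H rats. Every R237H rat lay above every WT rat. Between R237H and WT rats the log2 fold changes were 3.97 ± 0.68 in P56 males (FDR = 0.00112), 4.72 ± 0.53 in P56 females (FDR = 6.22e-05), 5.93 ± 0.65 in P21 males (FDR = 2.59e-05) and 3.65 ± 0.40 in P21 females (FDR = 0.000157). The high value in P21 males stands against 1 count in the 4 WT males together and 79 in the R237H males, a ratio of 95.7 (exact 95% interval 16.7 to 3830).

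Cxcr4, the receptor of CXCL12, had log2 fold changes of 1.72 in males and 1.35 in P56 females, and of 0.85 in males and 0.55 in P21 females, the last not past the threshold (FDR = 0.0192). Cxcr2, a receptor of neutrophil chemokines, was the rarest member, with 9 counts in the 4 P56 WT females and 11 in the 3 P21 WT females together. It was increased in P56 females (log2 fold change 2.93, FDR = 0.000895) and had 1.29 in P56 males (FDR = 0.0667) and 2.40 in P21 females, the last not tested. In P21 males, where it was too low to be tested across genes, 38 counts in R237H males stood against 1 in WT males, a ratio of 46.1 (exact 95% interval 7.78 to 1870). Ccr3, the eotaxin receptor, was increased in P21 males (0.91, FDR = 0.00859) and had 1.19 in P21 females, not tested. At P56 its log2 fold changes were 0.23 and 0.12 (FDR = 0.701 and 0.793).

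**Figure D2:**
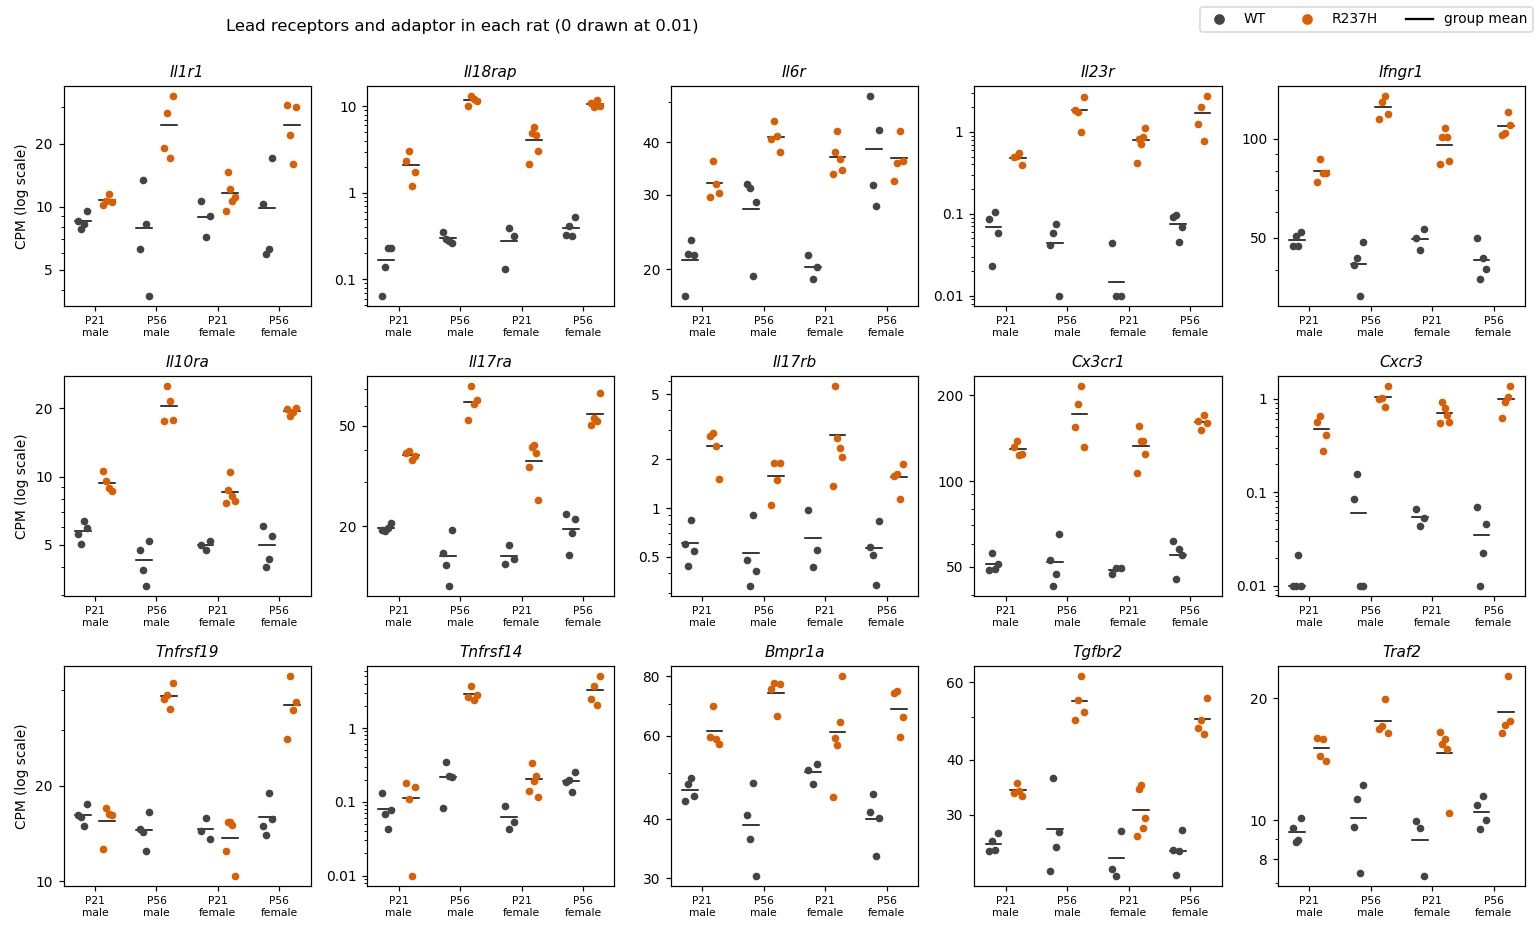
CPM on a log axis of 15 lead members in each rat (points, WT dark and R237H orange), with group means as bars, for both sexes at P21 and P56. Il18rap, Il23r and Cxcr3 rise from near 0 in WT rats at both ages, whereas Tnfrsf19 is raised in R237H rats at P56 and lies near the WT level at P21.

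In the TNF receptor superfamily, all 5 members were increased in both sexes at P56. Tnfrsf19 (TROY), a receptor of glial and progenitor cells, was the most abundant and was increased at P56, with a larger difference there than at P21 in both sexes (below). At P56 the WT males had 14.6, 14.3, 12.4 and 16.5 CPM and the R237H males 37.4, 38.7, 34.9 and 42.1, and the females 14.9, 14, 19 and 15.7 in WT and 28.1, 44.2, 34.6 and 36.7 in R237H rats. At P21 the males had 16.2, 15.9, 14.9 and 17.5 in WT and 12.6, 17, 16.3 and 16.1 in R237H rats, and the females had 14.4, 15.8 and 13.6 in WT and 12.4, 15.3, 15.4, 15 and 10.4 in R237H rats. The genotypes were apart at P56 and overlapped at P21. This gave log2 fold changes of 1.43 ± 0.11 in P56 males (FDR = 9.68e-06), 1.16 ± 0.15 in P56 females (FDR = 0.00016), -0.05 ± 0.10 in P21 males (FDR = 0.724) and -0.08 ± 0.15 in P21 females (FDR = 0.816).

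Tnfrsf14 (HVEM), the receptor of LIGHT, had the largest change of the class at P56. P56 WT males had 0.0839, 0.352, 0.226 and 0.216 CPM and R237H males 2.67, 3.69, 2.43 and 2.78, and the females had 0.184, 0.195, 0.135 and 0.254 in WT and 2.49, 3.67, 2.08 and 5.03 in R237H rats. At P21 it lay at 0.0424 to 0.13 in WT males and 0 to 0.179 in R237H males, and at 0.0433 to 0.0884 in WT females and 0.117 to 0.336 in R237H females, and was too low to be tested within that age. The P21 females did not overlap, with 49 counts in 5 R237H and 8 in 3 WT rats together, a ratio of 3.27 (exact 95% interval 1.54 to 8.01). The log2 fold changes at P56 were 3.72 in males and 4.08 in females (FDR = 4.18e-05 and 1.20e-05).

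Tnfrsf9 (4-1BB), a costimulatory receptor, and Tnfrsf12a (Fn14), the receptor of TWEAK, were raised at both ages. Tnfrsf9 had log2 fold changes of 2.84 and 3.02 at P56 and 3.66 and 3.09 at P21. Tnfrsf12a had 2.56 and 2.79 at P56 and 2.55 and 2.99 at P21. Tnfrsf26 had 2.52, 1.63, 1.20 and 1.39 in P56 males, P56 females, P21 males and P21 females, the last not past the threshold (FDR = 0.034).

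The 6 TNF superfamily ligands held the 1 member that was decreased. Tnfsf13 codes for APRIL, a ligand of the receptors TACI and BCMA. At P56 WT males had 12.3, 13.8, 21.3 and 21.8 CPM and R237H males 5.18, 5.1, 6.13 and 5.37, and WT females had 14.9, 14.3, 19.1 and 15.7 and R237H females 6.43, 4.97, 6.17 and 4.82. The P21 males had 8.18, 8.36, 7.86 and 8.22 in WT and 9.06, 9.35, 10.1 and 9.95 in R237H rats, and the females had 6.68, 6.87 and 6.78 in WT and 9.91, 6.22, 8.34, 7.66 and 8.69 in R237H rats. All R237H rats at P56 lay below all WT rats, whereas at P21 the R237H males lay slightly above the WT males and the females overlapped. On the log2 scale the differences were -1.64 ± 0.20 in P56 males (FDR = 0.000147), -1.53 ± 0.15 in P56 females (FDR = 2.35e-05), 0.24 ± 0.07 in P21 males (FDR = 0.0328) and 0.28 ± 0.15 in P21 females (FDR = 0.298).

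The neighboring gene Tnfsf12, which codes for TWEAK and lies next to Tnfsf13 in the rat annotation of RefSeq (GRCr8), was not decreased. Its log2 fold changes were 0.58 and 0.84 at P56 (FDR = 0.0344 and 0.0146), 0.55 in P21 females (FDR = 0.2) and 0.57 in P21 males, the last not tested. All expected counts of both genes were whole, as they are where no read is divided between genes.

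The other 4 ligands rose in all 4 comparisons. Tnfsf18, the ligand of the receptor GITR, had the largest mean absolute log2 fold change of the class over the comparisons. At P56 the WT males had 0.0839, 0.0979, 0.125 and 0.12 CPM and the R237H males 3.09, 3.58, 5.14 and 2.08, and the females 0.0922, 0.147, 0.0448 and 0.139 in WT and 3.81, 2.27, 3.93 and 2.59 in R237H rats. For P21 males the values were 0.0648, 0.116, 0.17 and 0.0193 in WT and 1.32, 1.27, 1.35 and 0.892 in R237H rats, and the females had 0.0663, 0.108 and 0.0788 in WT and 0.804, 1.43, 1.38, 0.947 and 1.24 in R237H rats. The lowest R237H rat had 0.804 CPM and the highest WT rat 0.17. The log2 fold changes were 5.03 ± 0.36 in P56 males (FDR = 5.31e-06), 4.86 ± 0.36 in P56 females (FDR = 3.94e-06), 3.69 ± 0.38 in P21 males (FDR = 1.76e-05) and 3.75 ± 0.37 in P21 females (FDR = 8.73e-05).

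Tnfsf13b codes for BAFF, which binds TACI and BCMA as APRIL does, and moved the opposite way from Tnfsf13 at P56. P56 WT males had 0.608, 0.666, 0.426 and 0.505 CPM and R237H males 4.1, 4.3, 5.72 and 3.69, with log2 fold changes of 3.03 in P56 males and 2.81 in P56 females and 2.08 and 2.27 at P21. Tnfsf4, the ligand of OX40, had 3.28, 2.12, 1.16 and 2.30 in the same order. Tnfsf8, the ligand of CD30, had 3.30, 3.53, 3.71 and 2.22. None of the 7 listed receptors of these ligands had a readable symbol, so for those pairs ligand and receptor could not be compared. The receptor of Tnfsf12, Tnfrsf12a, is itself a member. In the same order Tnfrsf12a had 2.56, 2.79, 2.55 and 2.99, beside 0.58, 0.84, 0.57 and 0.55 for Tnfsf12.

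**Figure D3:**
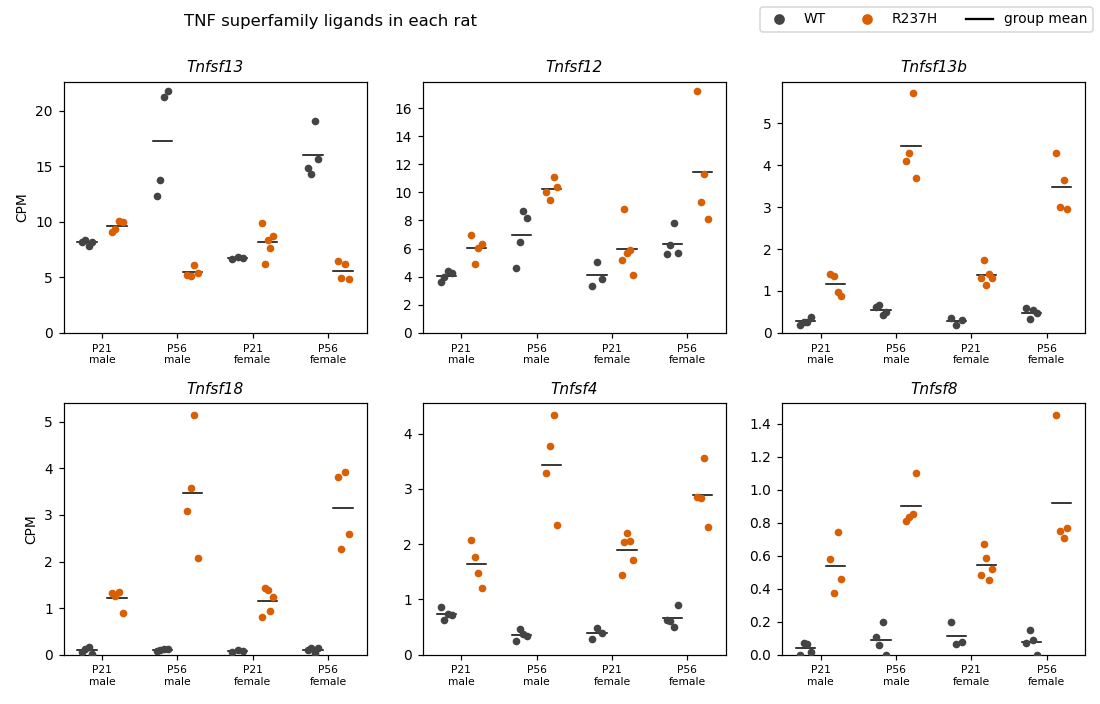
CPM (linear axis from 0) of the 6 TNF superfamily ligands in each rat (points, WT dark and R237H orange), with group means as bars. Tnfsf13 is lower in R237H rats at P56 and near the WT level at P21, whereas Tnfsf13b, Tnfsf18, Tnfsf4 and Tnfsf8 are higher in R237H rats at both ages.

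The sequences before the start sites of the ligand that fell and of 2 ligands that rose are shown to compare the letters on which immune transcription factors are known to act. Promoter windows were found in RefSeq (GRCr8) for 36 of the 44 members. The 250 bases before the start, on the strand of the gene and 5′ to 3′, were searched on both strands for GAAANNGAA (the core bound by interferon regulatory factors), TTCNNNGAA (STAT), GGANTTTCC (NF-kappaB), GAGGAAGT (PU.1) and TGANTCA (AP-1), where N is any base, and matches are in capitals. No match shown overlaps another.
Tnfsf13 (chr10:54901816-54902065, minus strand): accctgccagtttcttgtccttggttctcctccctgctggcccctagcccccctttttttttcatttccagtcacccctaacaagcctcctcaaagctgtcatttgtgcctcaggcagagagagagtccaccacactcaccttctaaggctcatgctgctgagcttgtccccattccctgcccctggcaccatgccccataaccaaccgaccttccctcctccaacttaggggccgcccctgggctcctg
Tnfsf13b (chr16:86194500-86194749, minus strand): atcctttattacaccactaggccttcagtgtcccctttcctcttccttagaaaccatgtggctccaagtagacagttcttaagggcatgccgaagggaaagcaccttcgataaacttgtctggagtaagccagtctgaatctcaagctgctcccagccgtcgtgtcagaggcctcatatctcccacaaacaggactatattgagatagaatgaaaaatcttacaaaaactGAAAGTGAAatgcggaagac
Tnfsf18 (chr13:76366603-76366852, plus strand): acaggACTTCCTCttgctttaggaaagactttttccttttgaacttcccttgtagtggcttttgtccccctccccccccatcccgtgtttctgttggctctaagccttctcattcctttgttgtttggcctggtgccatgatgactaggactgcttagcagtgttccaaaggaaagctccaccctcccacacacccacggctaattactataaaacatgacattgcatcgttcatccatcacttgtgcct
The window of Tnfsf13 held none of these motifs, that of Tnfsf13b held GAAANNGAA and that of Tnfsf18 held GAGGAAGT on the other strand. Among all 33469 promoter windows of that length, GAAANNGAA was found in 8.12%, TTCNNNGAA in 7.67%, GGANTTTCC in 1.08%, GAGGAAGT in 2.04% and TGANTCA in 6.34%. Among the 36 members these motifs were found in 6 (Bmpr1a, Csf3r, Il15ra, Il23r, Tnfsf8 and Tnfsf13b), 3 (Ifnar2, Il18r1 and Tnfrsf12a), 2 (Ccr3 and Ifngr2), 1 (Tnfsf18) and 4 (Bmpr1a, Ccr3, Il15ra and Traf1). Most of the 36 windows thus held no motif, like that of Tnfsf13, although Tnfsf13 was the only decreased member. The 3 windows shown therefore do not set decreased and increased members apart. The motifs GAAANNGAA and GGANTTTCC were first searched with 1 base more, an A after GAAANNGAA and a G before GGANTTTCC, and in that form were found in 3.41% and 0.314% of all windows and in 2 members each. The matches are descriptions of letters, and no binding was measured.

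The TGF-beta and BMP receptors had the smallest median log2 fold changes of the receptor classes (0.99, 0.76, 0.41 and 0.29 in P56 males, P56 females, P21 males and P21 females) but were among the more abundant. Bmpr1a, a type I BMP receptor, had 30.4 to 47.8 CPM (WT) and 66.1 to 77.4 (R237H) in P56 males, 33.4 to 45.1 (WT) and 59.5 to 74.5 (R237H) in P56 females, 43.6 to 48.9 (WT) and 57.6 to 69.2 (R237H) in P21 males, and 47.5 to 52.3 (WT) and 44.6 to 80.1 (R237H) in P21 females, and only the last pair overlapped. For Bmpr1a 28.1% of the expected counts were not whole. Between R237H and WT rats the log2 fold changes were 0.95 ± 0.14 in P56 males (FDR = 0.000407), 0.76 ± 0.11 in P56 females (FDR = 0.000409), 0.42 ± 0.07 in P21 males (FDR = 0.000932) and 0.29 ± 0.15 in P21 females (FDR = 0.28). Tgfbr2, the ligand-binding TGF-beta receptor, had 22.3 to 36.3 CPM (WT) and 49.3 to 62 (R237H) in P56 males and 21.9 to 27.7 (WT) and 45.9 to 55.4 (R237H) in P56 females, and 24.8 to 27.3 (WT) and 33.1 to 35.5 (R237H) in P21 males and 21.8 to 27.5 (WT) and 26.8 to 35.1 (R237H) in P21 females. This gave log2 fold changes of 0.99 ± 0.15 in P56 males (FDR = 0.000661), 0.98 ± 0.10 in P56 females (FDR = 4.00e-05), 0.41 ± 0.06 in P21 males (FDR = 0.000293) and 0.37 ± 0.13 in P21 females (FDR = 0.0849). Its signaling partner Tgfbr1 had 0.64 in P56 females (FDR = 0.00279), 1.02 in P56 males, not tested, and 0.19 and 0.22 at P21 (FDR = 0.0375 and 0.246).

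Of the adaptors and inhibitors, Traf2, which links TNF receptors to NF-kappaB, rose moderately. At P56 the WT males had 9.6, 11.3, 7.4 and 12.2 CPM and the R237H males 16.8, 17.1, 19.9 and 16.4, and the females 10.9, 9.48, 11.5 and 10 in WT and 16.4, 17.2, 22.7 and 17.6 in R237H rats. At P21 the males had 9.56, 8.8, 8.9 and 10.1 in WT and 16, 14.4, 15.9 and 14 in R237H rats, and the females had 9.95, 9.55 and 7.28 in WT and 16.5, 15.4, 15.9, 15 and 10.4 in R237H rats. The genotypes did not overlap, and R237H female R1797D was the closest to the WT rats. On the log2 scale the differences were 0.82 ± 0.16 in P56 males (FDR = 0.00248), 0.80 ± 0.13 in P56 females (FDR = 0.000792), 0.69 ± 0.08 in P21 males (FDR = 4.02e-05) and 0.73 ± 0.18 in P21 females (FDR = 0.0207), and in P21 females the change passed without R1797D (0.83, FDR = 0.00264). Traf1, an NF-kappaB target that inhibits or aids TNF receptor signals, had -0.01 and 0.34 at P56 and 0.67 in P21 males (FDR = 0.986, 0.396 and 0.212), and 1.39 in P21 females, not tested. Socs4, a suppressor of cytokine signaling, had 0.50 in P56 females (FDR = 0.0137), 0.87 in P56 males, not tested, and 0.02 and 0.20 at P21 (FDR = 0.886 and 0.43).

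The genotype difference was then compared between the ages with an interaction term in the 16 rats of a sex, for members with a symbol in a table of the other sex. In males 13 of 40 members differed more toward R237H at P56 than at P21 and 1 the opposite way at an FDR under 0.01, beside 5.81% and 4.31% of all genes. The 13 include Tnfrsf14, which entered the fit through its level at P56 and is described without a test. In females 3 of 39 differed more toward R237H at P56 and 1 the opposite way, beside 1.49% and 0.658% of all genes. With the 3 females whose libraries held choroid plexus markers left out, 1 of 39 passed in females, and by DESeq2 8 did. Il10ra, Il1rn, Tnfrsf19 and Tnfsf13 passed in both sexes. For Tnfrsf19 the log2 fold change was greater at P56 by 1.46 in males and 1.25 in females, and for Il1rn by 2.91 and 2.20. For Tnfsf13 the difference was -1.90 and -1.81, from near 0 at P21 to a decrease at P56.

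Among those passing in males alone were Cxcr4, Ifnar2, Ifngr1, Il13ra1-ps1, Il17ra, Il21r, Tnfrsf14 and Tnfsf4, which is no evidence of a sex difference. In females Il21r had a difference of 1.50 (FDR = 0.0101), Tnfrsf14 of 2.40 (FDR = 0.0465), Cxcr4 of 0.81 (FDR = 0.0488) and Tnfsf4 of -0.17 (FDR = 0.819). Ifnar2 had 0.52 (FDR = 0.0247), Il13ra1-ps1 0.66 (FDR = 0.158), Ifngr1 0.39 (FDR = 0.128) and Il17ra 0.25 (FDR = 0.548) in females. Il17re passed in males with 2.15 and had a like difference of 1.88 in females, where it is described without a test. Tnfrsf14 was too low to be tested at P21 and entered these fits through its level at P56, so its differences are not read as a test. The difference was above 0 for 29 of 40 members in males and 29 of 39 in females, and of the others Tnfsf13 alone passed. Its median over these members was 0.73 in males and 0.42 in females, beside -0.02 and -0.04 over all genes. Since the members came from tables of changed genes, this describes them and not the families as a whole. Cxcr2 in males had -3.63 ± 1.02 (SE, FDR = 0.0187), Tnfrsf9 in males -0.84 (FDR = 0.0616) and Cxcr3 in males -1.99 (FDR = 0.25). For Cxcr2 and Cxcr3 the P21 side of this difference rested on 1 count in all WT males together. Cxcr2 was too low to be tested in P21 males. Il6r in females had -0.95 (FDR = 0.016) and Il7r in females -0.72 (FDR = 0.151). Tnfrsf12a had differences of -0.01 ± 0.32 and -0.20 ± 0.35 (SE), and Cx3cr1 of 0.39 ± 0.19 and 0.09 ± 0.16.

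**Figure D4:**
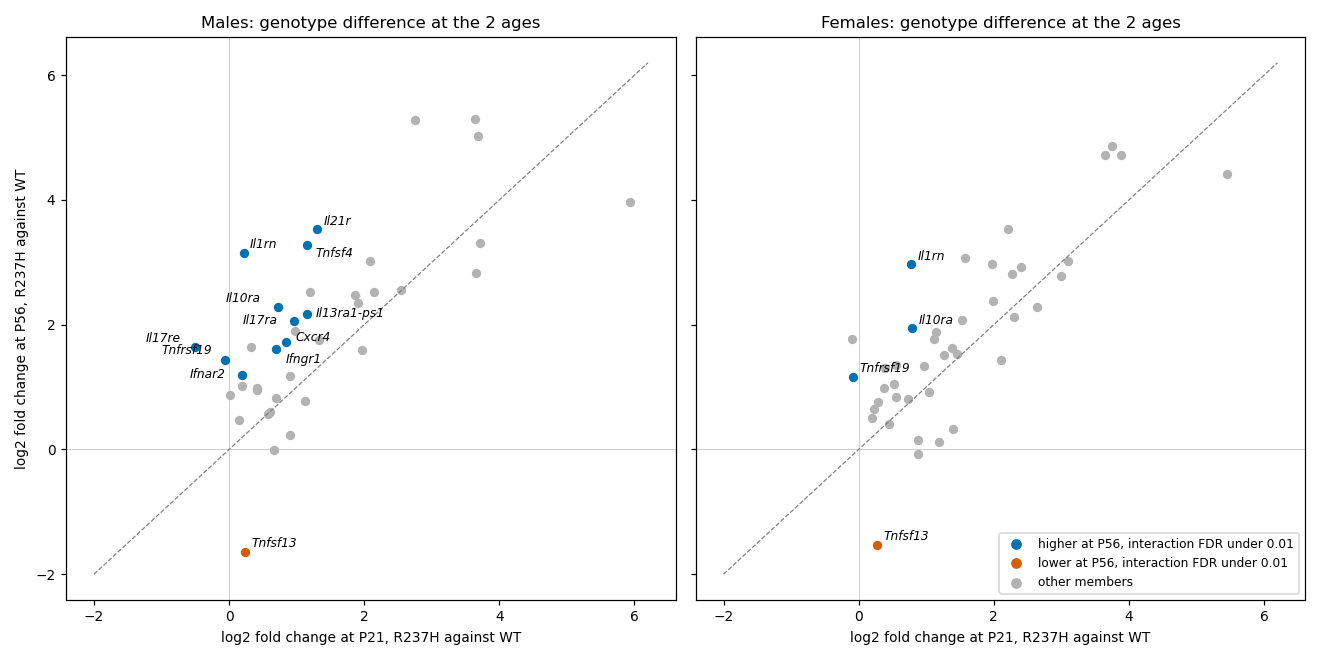
Log2 fold change of R237H against WT at P56 (y axis) against that at P21 (x axis) for the members tested at both ages, in males (left) and females (right), with the dashed line at equal change. Members with an age interaction at an FDR under 0.01 are named, 11 above the line and Tnfsf13 below it in males and 3 above and Tnfsf13 below in females. Tnfrsf14, which passed in males, is not drawn because it was too low for a fold change at P21.

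The genotype difference was compared between the sexes in the same way, for members with a symbol in a table of the other age. At P21 all males shared a number in their labels that no female had. What that number marks is not stated, and at P21 it cannot be told apart from sex. At an FDR under 0.01, 0 of 36 members at P56 and 0 of 34 at P21 passed by edgeR or by DESeq2, and 0% of all genes passed in either direction at either age. At an unadjusted p under 0.05, 6 of 36 and 7 of 34 members differed. The share of all genes at that p was not taken, so no excess among the members can be read from these counts. Tnfsf4 had the smallest p at both ages, with male minus female differences of 1.13 ± 0.36 at P56 and -1.14 ± 0.32 at P21, which are of opposite sign (FDR = 0.999 and 1.0). A p that misses the threshold does not show that the sexes are alike.

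Of 42 listed ligands of the member receptors 16 had a readable symbol, which like that of the members came from the tables of changed genes. In P56 males 13 of 15 tested from other rats were increased and 1 decreased, in P56 females 13 and 2 of 16, in P21 males 8 and 1 of 12, and in P21 females 9 and 0 of 14. In the same order 16.8%, 17.0%, 12.4% and 7.06% of all genes were increased and 11.1%, 11.1%, 4.82% and 0.753% decreased. Among the 4 most abundant, Ccl7, a ligand of Ccr3, was increased (log2 fold changes 6.83 and 5.66 at P56, 5.88 and 6.45 at P21) and so was Il33, the ligand of Il1rl1, at P56 (1.17 and 1.21), but at P21 it had 0.04 and 0.44 (FDR = 0.705 and 0.159). Cxcl12, the ligand of Cxcr4, was decreased at P56 (-0.64 and -0.83) and in P21 males (-0.30) and had -0.41 in P21 females (FDR = 0.0327). Cx3cl1, the neuronal ligand of Cx3cr1, was decreased in P56 females (-0.63), had -0.82 in P56 males, not tested, and -0.11 and -0.21 at P21 (FDR = 0.244 and 0.225).

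Of 34 kinases and transcription factors that act after these receptors 22 had a symbol, which also came from the tables of changed genes. Of those tested from other rats 20 of 20 were increased in P56 males, 22 of 22 in P56 females, 20 of 20 in P21 males and 10 of 22 in P21 females. Of all genes 16.8%, 17.0%, 12.4% and 7.06% were increased in the same order. Genes entered through these tables, so the counts describe them and do not show that the pathway as a whole moved. The most abundant was Stat3, which acts after Il6st and Il10ra, with log2 fold changes of 2.25 and 2.14 at P56 and 1.30 and 1.42 at P21. Rela, a subunit of NF-kappaB, had 1.25, 1.29, 0.76 and 0.85. Of 13 partner chains 1 had a symbol, Il6st, which was increased by 0.73 and 0.63 at P56 and by 0.69 and 0.66 at P21. Of 16 receptors of the same families outside the symbol patterns 10 had a symbol from the same tables. Of those tested from other rats 9 of 9, 8 of 8, 8 of 10 and 8 of 9 were increased in P56 males, P56 females, P21 males and P21 females, with the same limit. Among them was Csf1r, the receptor of microglial growth factors, with 2.30, 2.05, 1.48 and 1.69.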

How the data were processed

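RNA from whole hippocampi (Ammon's horn, dentate gyrus and subiculum) of 32 rats was sequenced as stranded poly(A) libraries. As the study describes, the authors called bases with bcl2fastq 2.20.0.422, trimmed with Skewer, aligned with STAR and quantified genes with RSEM. The genome build and annotation are not given in the sources used here. The deposited tables hold expected counts from RSEM, which divides reads that fit several genes and need not be whole, and TPM computed by the authors. Columns of the authors' own comparisons (fold changes and p-values) were not used, and the tables with symbols served to name genes. Groups came from the labels for genotype, sex and age, which give 5 R237H and 3 WT females at P21.

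Expected counts were rounded, filtered with filterByExpr and TMM-scaled, and tested with glmQLFTest of edgeR 4.0.16 in R 4.3.3 within each sex and age. The Benjamini-Hochberg FDR was taken over all genes tested and the threshold was 0.01. The interactions used the 16 rats of a sex or of an age. The test was checked on simulated counts. Values for each rat are CPM rather than TPM, because the median log2(TPM + 0.1) difference between genotypes over all genes was 0.40 in males and 0.26 in females at P56. Ratios of pooled low counts have exact intervals that cover counting error only. Alternatives were a likelihood-ratio test, DESeq2 1.42.0, RLE factors, other filters, thresholds and samples, log2(TPM + 0.1) with limma 3.58.1, and each rat left out.

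The members, classes, gene lists and tests were chosen with earlier results of these data known. Values for each rat were given for the members with the highest mean TPM and the largest mean absolute log2 fold change of each class and for any decreased member, and list genes were named by mean TPM, at most 4 a list. Il1rn, Tnfsf13b, the marker genes, the 3 promoters and the motifs were chosen after their values were seen. The interferon and NF-kappaB motifs were each shortened by 1 base from the form first searched. One member that is counted in the totals and one marker list are not reported here.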

Additional observations from a re-analysis of the deposited data

Results flagged for a closer look

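The genotype difference depended on age for the 17 values given here by the interaction test of edgeR (FDR under 0.01), as the log2 fold change at P56 minus that at P21. In males it was larger at P56 for Il1rn (2.91), Il21r (2.21), Il17re (2.15), Tnfsf4 (2.10), Il10ra (1.55), Tnfrsf19 (1.46), Il17ra (1.07), Il13ra1-ps1 (1.01), Ifnar2 (0.99), Ifngr1 (0.89) and Cxcr4 (0.85). Il13ra1, which shares reads with Il13ra1-ps1, had 0.91 in males (FDR = 0.0634). Tnfrsf14 in males (3.07) is among the 17 but is described without a test. It was too low at P21 and entered the fit through its level at P56. In females it was larger at P56 for Il1rn (2.20), Tnfrsf19 (1.25) and Il10ra (1.16). Fewer members passed in females without the rats whose libraries held choroid plexus markers, as given above. Tnfsf13 had the opposite sign, with -1.90 in males and -1.81 in females. The smallest FDR were those of Tnfrsf19 in males (1.3e-05) and Tnfsf13 in males (4.2e-05) and females (0.00022). Age and collection cannot be told apart in any of these.

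In 3 of 119 groups of 4 or 5 rats 1 rat stood apart from the others by the test of Dixon, where chance gives about 1 in 20, or 5.95. WT male R1781F at P21 had 0.0212 CPM of Cxcr3, which is 1 read, and the other 3 WT males had 0. R237H female R1797D at P21 had 10.4 CPM of Traf2, below the next value of 15. R237H male R1781I at P21 had 0.892 CPM of Tnfsf18, below the next value of 1.27.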

How the results depend on the processing

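The count of decreased members was 1 in each sex at P56 and 0 at P21 under all alternatives run. Counts of increased members stayed within 1.5 times in all but 1 case, and no called value changed direction. In P21 females, 11 of 39 members were increased with the number in the rats' labels as a replicate block, against 23 without it. With the same block 29 members were increased in P56 males and 28 in P56 females, against 35 and 35. In P21 males all rats share 1 number, so no block could be fitted. Deviations of same-numbered rats correlated at -0.02 to 0.22 in P56 males, 0.07 and 0.47 in P56 females and 0.02 to 0.39 in P21 females. Rats with different numbers correlated at -0.25 to 0.31, -0.31 to 0.27 and -0.27 to 0.20 in the same order. The highest value in females of each age was that of a same-numbered pair. So few pairs cannot decide whether the numbers pair the rats, and the main fits used no pairing. The age interaction in females was called for 4 members, for 8 by DESeq2, 7 with all 32 rats in 1 model, 10 at an FDR under 0.05 and 1 without the 3 females with choroid plexus, a setting chosen after seeing the data that also has fewer samples. Without the 6 rats with choroid plexus, 29, 34, 29 and 16 members were increased in P56 males, P56 females, P21 males and P21 females. With each rat left out in turn the counts were 31 to 36, 33 to 37, 28 to 29 and 16 to 24. Requiring at least 10 counts in every rat left 27 of 31, 28 of 35, 23 of 30 and 17 of 31 members increased. Over the 65 tested values of the lead members, leaving out 1 rat at a time left the call as it was in 500 fits, gained it in 6 and lost it in 14, the latter all of Il17rb and Il10ra. On log2(TPM + 0.1) 62 of 65 values kept their call, 2 were gained and the call of Il10ra in P21 females was lost (FDR = 0.0168, limma). Members with few counts in WT rats, such as Cxcr2, Cxcr3 and Il23r, have wide intervals at this depth.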

Other observations

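Few markers of other brain cells had a symbol, which was read from the same tables of changed genes. Of 6 astrocyte markers with a symbol, the P56 males and the P56 females each had 1 higher and 2 lower in R237H, the P21 males 2 higher and 4 lower, and the P21 females 1 higher and 3 lower (edgeR, FDR under 0.01). The 1 endothelial marker with a symbol was decreased in all 4 comparisons, with log2 fold changes of -0.85, -0.86, -0.58 and -0.96. Of the neuronal markers 1 of 1 was decreased in P56 males and 1 of 2 in P56 females and 0 at P21, and of 2 mural and fibroblast markers 0 passed in the 3 comparisons with a test from other rats.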
